A study of Bos taurus with 9 samples.

Results

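Abdominal and subcutaneous adipose tissue of bulls of the Yan yellow cattle breed were compared across all measured genes. The 6 arrays of this comparison were those labelled abdominal (3 arrays) or subcutaneous (3 arrays) adipose tissue, of 9 arrays in the series, and the remaining 3 came from longissimus dorsi muscle. All samples were from males aged 24 months, reared alike, and were taken at slaughter and frozen. The labels name no treatment and count 9 bulls without tying samples to animals. The p-values therefore reflect only how far the 9 arrays, muscle included, spread, and that spread may be technical. The abdominal site is not described further, so omental, mesenteric and perirenal fat cannot be told apart.

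White adipose tissue stores fatty acids as triacylglycerol, releases them between meals and secretes hormones such as leptin and adiponectin. In cattle it is also the main site where fatty acids are made from acetate. Fat inside the abdomen and fat under the skin come from different precursor cells. The depots keep different developmental transcription factors, vessels, stromal cells and resident immune cells, and abdominal fat can be covered by mesothelium. In bulk tissue, fewer cells of a type and less RNA per cell cannot be told apart.

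Messenger RNA was measured with a 1-colour Affymetrix bovine array. Levels are given as the log2 of the intensity of a probe set, which is a group of probes for the same transcript, and a difference is abdominal minus subcutaneous on that log2 scale. An SE is the moderated standard error from limma. A level under 6 is taken as near background, and a difference that starts there has no exact size. The median level was 5.89 on each abdominal array and 5.87 to 5.92 on the subcutaneous arrays, and 48.4% to 49.0% of probe sets lay over 6 on these 6 arrays. Pearson's r over all probe sets was 0.987 to 0.990 between arrays of the same depot and 0.977 to 0.984 between depots. A first principal component with 40.9% of the variance separated the depots. The added control transcript BioB averaged an intensity of 176.2 on abdominal replicate 3 and 58.0 to 72.9 on the other 5 arrays, and the title of that sample follows another pattern. The 3'/5' intensity ratio of control transcripts, a sign of RNA integrity, overlapped between the depots for 6 of 6 transcripts (exact two-sided permutation p from 0.3 to 1.0, smallest possible 0.1). The ratio for the translation factor eIF4E was 6.74 to 11.06 in abdominal and 10.21 to 24.89 in subcutaneous fat. Both depots had the adipocyte genes ADIPOQ, PPARG, FABP4 and LEP at levels over 9. The summed intensity of 27 skeletal muscle genes was 4519 to 9426 in abdominal and 4994 to 6011 in subcutaneous fat, against at least 191371 in muscle.

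Of 24016 probe sets tested, 314 passed an adjusted p of 0.05, which is 1.31%. Of these 154 were higher in abdominal fat (0.641%) and 160 lower (0.666%). At an unadjusted p under 0.05 there were 3473. Taking the brightest probe set in fat for each of 9155 named genes, 137 genes passed (1.50%), 74 higher in abdominal fat (0.808%) and 63 lower (0.688%). For all 137 the abdominal and subcutaneous arrays did not overlap, as was the case for 28.7% of all genes. The median difference was -0.04 over all genes. The called differences ran from 0.59 in size upward, with 45 above 1 in favour of abdominal fat and 28 beyond -1. In 38 of the 137 genes the lower depot had a mean under 6, and in 14 both did.

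**Figure D1:**
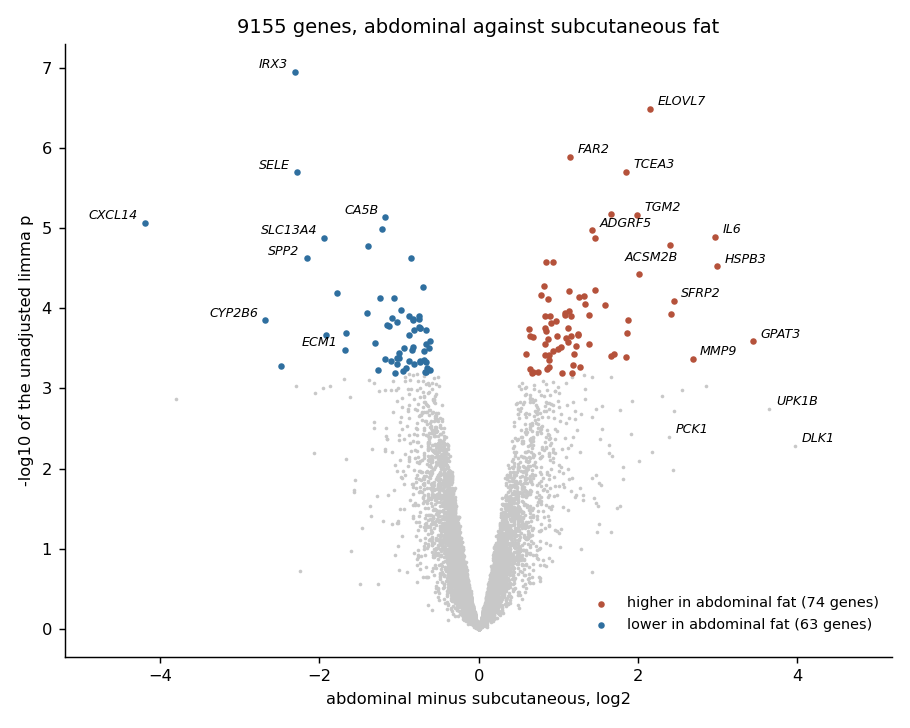
Each point is 1 of 9155 genes, with the abdominal minus subcutaneous difference in log2 on the x axis and -log10 of the unadjusted limma p on the y axis. The 74 red points passed higher in abdominal fat and the 63 blue points passed lower, while grey points, among them DLK1, UPK1B and PCK1, did not pass at an adjusted p of 0.05.

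The number of calls fell when any adipose array was left out. It was 105, 74 and 57 without abdominal replicate 1, 2 and 3, and 67, 90 and 79 without subcutaneous replicate 1, 2 and 3. Without muscle replicate 1, 2 and 3, which enter only through the estimate of the spread, it was 132, 352 and 491. Of the 137 called genes, 16 passed in all 9 of these fits, 10 higher and 6 lower in abdominal fat, and 70 passed in none of the 6 fits that left out an adipose array. The 16 genes were chosen after their values were seen and are described first.

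**Figure D2:**
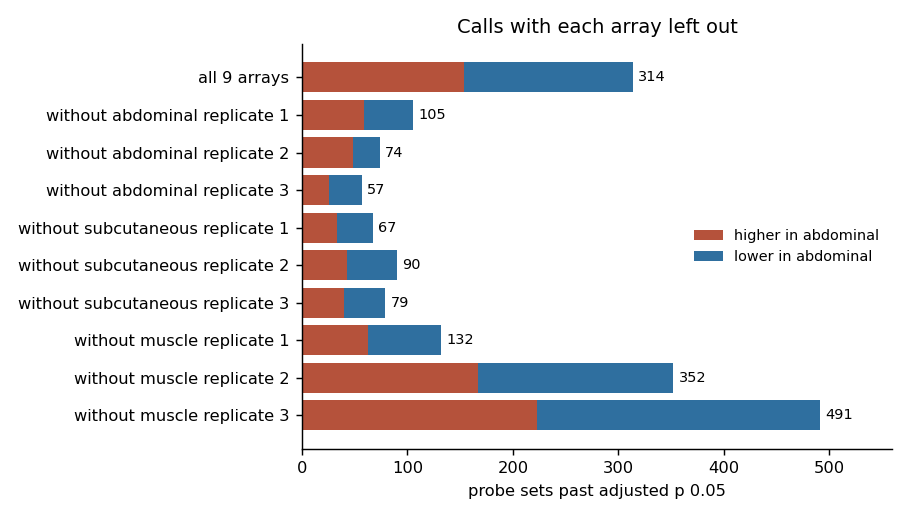
Bars give the number of probe sets past an adjusted p of 0.05 in the fit of all 9 arrays (314) and with each array left out in turn, split into those higher (red) and lower (blue) in abdominal fat. The 6 bars without an adipose array lie between 57 and 105.

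The 6 genes with such calls that were lower in abdominal fat encode a chemokine, a homeobox factor, a vascular adhesion molecule, a sulfate transporter, a carbonic anhydrase and a globin relative. CXCL14, a chemokine of epithelia and stroma, read 7.83, 5.30 and 6.53 in abdominal and 10.48, 10.81 and 10.96 in subcutaneous fat. It had the largest difference of the 137 genes, -4.19 ± 0.50 (SE, 3 arrays per depot), an 18.3-fold ratio (limma adjusted p = 0.00849). The subcutaneous arrays agreed to an SD of 0.24, while the abdominal arrays spread over an SD of 1.27. IRX3, an Iroquois homeobox transcription factor, read 7.93, 7.80 and 7.97 in abdominal fat against 10.49, 9.94 and 10.21 (difference -2.31 ± 0.17; limma adjusted p = 0.00136, the smallest of the 9155 genes). SELE, the adhesion molecule E-selectin of activated endothelium, lay near background in abdominal fat at 4.65, 3.85 and 4.16 and reached 6.79, 6.20 and 6.51 in subcutaneous fat. All abdominal arrays were thus under 5 and all subcutaneous arrays over 6 for SELE.

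CA5B, a mitochondrial carbonic anhydrase, was well above background in both depots. Its abdominal arrays read 7.80, 7.57 and 7.93 and its subcutaneous arrays 8.81, 9.05 and 8.96 (difference -1.17 ± 0.14; limma adjusted p = 0.00765, at most 0.0377 with 1 array left out). SLC13A4, a sodium-dependent sulfate transporter, stayed under 6 on every adipose array, at 3.88, 3.54 and 3.43 against 5.83, 5.26 and 5.57. Its other probe sets differed by -0.53 and -0.13 and did not pass. ADGB, which encodes the globin-domain protein androglobin, was also dim, at 2.76, 3.14 and 3.22 against 4.17, 4.31 and 4.26 (limma adjusted p = 0.00885). The sizes of the SELE, SLC13A4 and ADGB differences are therefore not exact.

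The 10 genes that were higher in abdominal fat in all these fits include 3 enzymes that act on fatty acids. ELOVL7, an elongase of long-chain fatty acids, read 7.49, 7.83 and 7.38 in abdominal fat and 5.19, 5.71 and 5.32 in subcutaneous fat (difference 2.16 ± 0.18; limma adjusted p = 0.00168). FAR2, which reduces fatty acyl-CoA to fatty alcohol, read 6.46, 6.60 and 6.58 against 5.41, 5.41 and 5.39 (difference 1.15 ± 0.11; limma adjusted p = 0.00426). Its subcutaneous arrays, all near background, agreed to an SD of 0.01. ACSM2B, a medium-chain acyl-CoA synthetase, read 5.75, 6.36 and 4.99 against 3.33, 3.41 and 3.14, and a dimmer probe set also passed, with a difference of 1.50. ACSM2B was near background throughout subcutaneous fat and on abdominal replicates 1 and 3. All 3 enzymes were under 6 on every subcutaneous array, so the sizes of their differences are not exact.

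IL6, a cytokine that fat also secretes, read 7.56, 6.46 and 7.38 in abdominal fat and 4.06, 4.92 and 3.50 in subcutaneous fat, where every array was near background. OLR1, a scavenger receptor for oxidised low-density lipoprotein, read 5.96, 5.74 and 6.50 against 4.20, 4.40 and 4.59 (difference 1.67 ± 0.19; limma adjusted p = 0.00754). It was near background on every subcutaneous array and on abdominal replicates 1 and 2. The IL6 and OLR1 differences therefore have no exact size. TGM2, the tissue transglutaminase that crosslinks proteins, was clear of background in both depots, with 8.45, 9.11 and 9.08 against 6.73, 6.83 and 7.10. Its difference was 1.99 ± 0.23 (limma adjusted p = 0.00754), which is 3.98-fold. ADGRF5, an adhesion receptor found in endothelium, and MYO10, a myosin of cell protrusions, were the brightest of the 10. ADGRF5 read 10.40, 10.72 and 10.31 in abdominal fat and 9.27, 8.91 and 8.96 in subcutaneous fat. MYO10 read 9.75, 10.09 and 9.77 against 8.67, 8.32 and 8.24.

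HSPB3, a small heat shock protein, and TCEA3, a transcription elongation factor of the TFIIS family, were higher in abdominal fat and higher still in muscle. HSPB3 read 8.91, 7.23 and 7.67 in abdominal fat and 5.33, 5.18 and 4.31 in subcutaneous fat, with a muscle mean of 10.15. TCEA3 read 7.17, 7.11 and 7.40 against 5.18, 5.57 and 5.38, with a muscle mean of 10.74. The difference for TCEA3 was 1.85 ± 0.19 (limma adjusted p = 0.00426). Both genes were near background on every subcutaneous array, so the sizes of their differences are not exact. Some called genes outside the 16 were also brighter in muscle than in fat, and each lost its call in at least 1 fit that left out an array. SH3BGR, RBM24, LMO7 and RNF144B were higher in abdominal fat, by 0.89, 1.39, 1.25 and 1.23. Their muscle means were 12.51, 10.53, 9.17 and 9.35. Others went the opposite way, such as DDIT4L and PGP at -1.40 and -0.70, with muscle means of 11.38 and 9.13. None of 27 measured skeletal muscle genes passed. Their median difference was 0.08. With 1 array left out it ran from -0.11 without abdominal replicate 2 to 0.44 without abdominal replicate 3. In that list CKM, muscle creatine kinase, had the smallest p, with a difference of 0.56 (limma adjusted p = 0.291). That CKM probe set, the brighter in fat, had a muscle mean of only 8.58, while its other probe set had a muscle mean of 13.27 and differed by -0.10 between the depots. The part of muscle RNA in any of these differences, those of HSPB3 and TCEA3 included, was not tested.

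**Figure D3:**
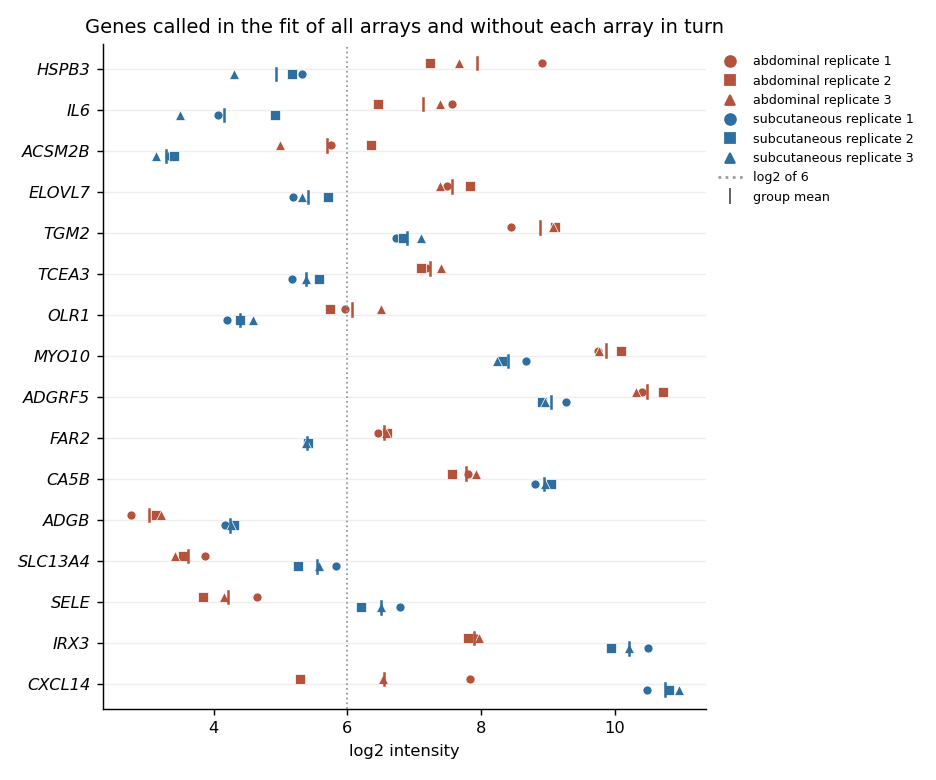
Points give the log2 intensity (x axis) of the 16 genes that passed in the fit of all arrays and without each array in turn, with 3 abdominal arrays in red and 3 subcutaneous arrays in blue, a vertical tick at each group mean and a dotted line at 6. No gene has overlapping depots, from CXCL14 at 5.30 to 7.83 against 10.48 to 10.96 to HSPB3 at 7.23 to 8.91 against 4.31 to 5.33.

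For the remaining genes, the highest adjusted p reached with 1 array left out is given beside each call, together with that array. Several further lipid enzymes were higher in abdominal fat. GPAT3, a glycerol-3-phosphate acyltransferase that starts triacylglycerol synthesis, had the largest called difference on the abdominal side. It read 9.72, 10.65 and 9.21 in abdominal fat and 4.91, 7.72 and 6.58 in subcutaneous fat, a difference of 3.45 ± 0.62 (limma adjusted p = 0.0349, and 0.112 without abdominal replicate 2). The subcutaneous arrays were the more scattered, with an SD of 1.41, and a second, dim GPAT3 probe set differed by 0.20. GK, glycerol kinase, was 1.34 ± 0.21 higher, from a subcutaneous mean of 4.66 near background (limma adjusted p = 0.0263, and 0.0861 without abdominal replicate 3). ACSF2, another acyl-CoA synthetase, was 1.19 ± 0.23 higher (limma adjusted p = 0.0451, and 0.144 without abdominal replicate 3). PCK1, the cytosolic enzyme of glyceroneogenesis, read 11.45, 11.95 and 10.16 against 8.82, 8.24 and 9.32 without overlap, and did not pass (limma adjusted p = 0.109).

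Calls in the lists here and below are to be read against 1.50% of all genes called and 28.7% without overlap. List calls are by the brightest probe set of each gene. Of the lipid lists, 3 held calls. In triacylglycerol synthesis and glyceroneogenesis, GPAT3 and GK were the 2 called of 19 measured genes, the median difference was 0.19, and 21.1% did not overlap. In acyl-CoA synthesis and fatty acid uptake, ACSM2B and ACSF2 were the 2 called of 19, with a median of 0.17 and 47.4% without overlap. Of 25 genes for fatty acid synthesis, elongation and desaturation 1 was called, ELOVL7, and the median was -0.10. None of 16 lipid droplet and lipolysis genes passed by its brightest probe set. The smallest p there belonged to the droplet coat protein PLIN2 with a difference of -0.87 (limma adjusted p = 0.149). A second probe set of CIDEB, also in that list, passed (difference -1.02; limma adjusted p = 0.0446). It averaged 5.83 over the adipose arrays, against 5.85 for the brightest CIDEB probe set, which differed by -0.48. None of 24 fatty acid oxidation genes passed by its brightest probe set. PDK4, the kinase that shuts off pyruvate dehydrogenase, came nearest there, with 12.65, 12.28 and 12.66 against 11.37, 11.92 and 11.57 (difference 0.91; limma adjusted p = 0.0715). Its 2 other probe sets, also bright, differed by 1.42 (limma adjusted p = 0.0232) and 1.10 (limma adjusted p = 0.173).

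In the list of adipocyte identity genes no call was made with all arrays. None of 27 measured members passed (2 did without muscle replicate 2), 22 had a difference above 0, and the median was 0.18. Of the 27 genes 11 lay higher and 1 lower without overlap, which is 44.4% against 28.7% of all genes. PCK1, also in this list, and TMEM120A, a nuclear envelope protein of adipocytes (difference 1.03; limma adjusted p = 0.164), were among the 11. The summed intensity of the list was 96353 to 103427 in abdominal and 83200 to 90254 in subcutaneous fat. ADIPOQ, adiponectin, read 11.55, 11.66 and 11.67 in abdominal fat and 10.55, 11.07 and 10.87 in subcutaneous fat, without overlap but short of the threshold (difference 0.79; limma adjusted p = 0.239). PPARG, the master regulator of adipocyte formation, differed by 0.47 (limma adjusted p = 0.402). LEP, leptin, overlapped between the depots, at 10.74, 9.58 and 10.03 against 10.16, 9.21 and 10.06 (difference 0.31; limma adjusted p = 0.771). FABP4, the main fatty acid carrier of adipocytes, read 13.65 to 13.78 on all 6 arrays, and its depots overlapped (difference 0.04; limma adjusted p = 0.974). The highest values of these arrays were 13.65 to 13.81, so a FABP4 difference could be hidden at the top of the scale. Its dimmer probe set read 12.98, 12.87 and 12.78 against 12.25, 12.57 and 12.51, without overlap (difference 0.43; limma adjusted p = 0.623). The brighter FABP4 probe set had an SE of 0.27 beside SDs of 0.06 in abdominal and 0.03 in subcutaneous fat. ADIPOQ had an SE of 0.29 beside SDs of 0.07 and 0.26. The fit shares its spread estimate with the muscle arrays, and without muscle replicate 2 ADIPOQ reached a limma adjusted p of 0.0538. The lack of calls here thus does not reflect the scatter of the fat arrays alone. Of 9 measured thermogenic genes none passed. ADRB3, the beta-3 adrenergic receptor, had the smallest p there (difference 0.39; limma adjusted p = 0.283). UCP1, the uncoupling protein of brown fat, read 5.48 on abdominal replicate 2 and 2.88 to 3.30 on the other arrays, all near background.

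None of 47 measured oxidative phosphorylation subunits passed. Of these, 34 had a difference below 0, and the median was -0.15 against -0.04 over all genes. Without overlap 18 lay lower and 1 higher, which is 40.4% against 28.7% of all genes. UQCRC1, a core subunit of complex III, came nearest to a call, with 10.09, 10.14 and 10.44 against 10.79, 10.84 and 10.76 (difference -0.58; limma adjusted p = 0.0595). The median stayed between -0.19 and -0.10 with any 1 array left out. Among adipokines and other secreted factors 1 of 25 passed. It was FSTL3, a follistatin-like inhibitor of activin, with a difference of -0.66 ± 0.12 (limma adjusted p = 0.0354, and 0.118 without abdominal replicate 3).

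**Figure D4:**
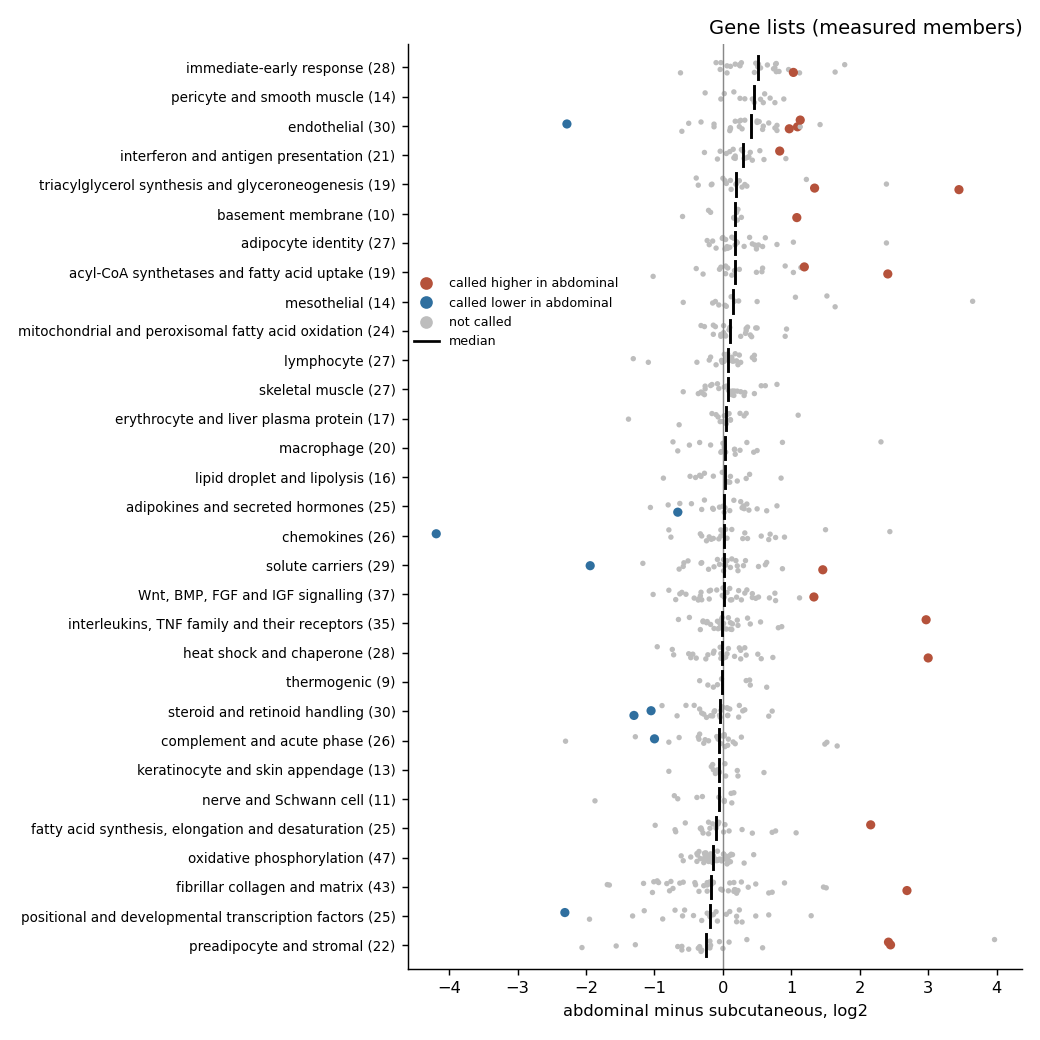
Each row is a gene list with its number of measured members, and each point is 1 member placed at its abdominal minus subcutaneous difference in log2, red or blue where it passed higher or lower in abdominal fat and grey where it did not. Black ticks mark the list medians, which run from -0.25 for preadipocyte and stromal genes to 0.52 for immediate-early genes.

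Of 30 measured endothelial genes 3 were called higher in abdominal fat and 1, E-selectin, lower, against 0.808% and 0.688% of all genes. Of the 30 members 24 had a difference above 0 and the median was 0.41. TEK, the angiopoietin receptor, read 10.20, 10.57 and 10.38 against 9.15, 9.41 and 9.31 (difference 1.09 ± 0.18; limma adjusted p = 0.0293, and 0.0925 without abdominal replicate 3). APLNR, the apelin receptor, was 1.13 ± 0.18 higher (limma adjusted p = 0.0290, and 0.0942 without abdominal replicate 3). PLVAP, which forms the diaphragms of fenestrated capillaries, was 0.97 ± 0.16 higher (limma adjusted p = 0.0293, and 0.0969 without abdominal replicate 2). SELE was the only member called lower. FLT1, a receptor for vascular endothelial growth factor, read 8.39, 8.62 and 8.44 against 7.17, 6.80 and 7.21 and narrowly missed the threshold (difference 1.42; limma adjusted p = 0.0523).

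The vessel genes did not differ evenly. Among members that did not pass, PECAM1 differed by 0.10, VWF, near background here, by 0.11, CLDN5 by -0.13 and CD34 by -0.60, while ANGPT2 differed by 1.11 and the water channel AQP1 by 1.13. Of the 30 genes 14 lay higher and 2 lower without overlap, which is 53.3% against 28.7% of all genes. The number of members called was 1 without abdominal replicate 2, abdominal replicate 3 or subcutaneous replicate 1, and 6 without muscle replicate 2 or 3. The median stayed between 0.29 and 0.55. The summed intensity of the list was 17915 to 20398 in abdominal and 13641 to 16049 in subcutaneous fat. Pericyte and smooth muscle genes had no call among 14, a median of 0.45 and 12 differences above 0. RGS5, a pericyte regulator of G protein signalling, had the smallest p there (difference 0.89; limma adjusted p = 0.112). In the basement membrane list LAMB1, a laminin chain, was the 1 called of 10 (difference 1.08 ± 0.17; limma adjusted p = 0.0293, and 0.0851 without abdominal replicate 2).

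In the lists of stromal genes and growth signals, 3 genes were called, all higher in abdominal fat. SFRP2, a secreted modulator of Wnt signalling, read 10.60, 11.03 and 11.12 in abdominal fat and 8.03, 8.07 and 9.32 in subcutaneous fat (difference 2.45 ± 0.38; limma adjusted p = 0.0248, and 0.0867 without abdominal replicate 3). Its relative SFRP4 read 8.86, 8.69 and 10.38 against 11.15, 11.57 and 11.40 and did not pass (difference -2.06; limma adjusted p = 0.0627). NNAT, the imprinted membrane protein neuronatin, read 10.06, 11.77 and 11.61 against 8.31, 8.98 and 8.88 (difference 2.42 ± 0.39; limma adjusted p = 0.0293, and 0.0942 without abdominal replicate 3). A second NNAT probe set agreed, at 2.37. SFRP2 and NNAT were the 2 called of 22 preadipocyte and stromal genes, against 1.50% of all genes. The median of that list was -0.25, with 16 differences below 0. In the list of Wnt, BMP, FGF and IGF signals 1 of 37 passed, against 1.50% of all genes. FGF2, a fibroblast growth factor that acts on vessels and precursors, read 9.92, 9.72 and 9.98 against 8.31, 8.84 and 8.47 (difference 1.33 ± 0.20; limma adjusted p = 0.0232, and 0.0854 without abdominal replicate 3).

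Of 43 measured fibrillar collagen and matrix genes 1 was called, higher in abdominal fat, against 1.50% of all genes called. MMP9, a gelatinase that neutrophils and macrophages release, read 5.95, 8.28 and 8.19 against 4.42, 4.87 and 5.06 (difference 2.69 ± 0.52; limma adjusted p = 0.0431, and 0.136 without abdominal replicate 3). All subcutaneous arrays and abdominal replicate 1 were near background for MMP9. The list median was -0.17, against -0.04 over all genes. Without overlap 12 members lay lower and 5 higher, which is 39.5% against 28.7% of all genes. The collagen crosslinking enzyme LOX read 7.12, 6.06 and 6.98 against 8.91, 7.94 and 8.37 and narrowly missed the threshold (difference -1.69; limma adjusted p = 0.0540). Fibromodulin, FMOD, differed by -1.66 and the collagen chain COL1A1 by -0.82, while periostin, POSTN, differed by 1.51 and tenascin C, TNC, by 1.47, none of which passed.

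Of 25 measured positional and developmental transcription factors IRX3 was the 1 called. The median was -0.19, with 10 factors lower and 3 higher in abdominal fat without overlap, which is 52.0% against 28.7% of all genes. OSR2, a zinc finger factor of limb and palate development, read 5.30, 4.27 and 5.79 against 7.41, 6.28 and 7.53 by its brightest probe set (difference -1.95; limma adjusted p = 0.0590), and a dimmer probe set passed (difference -1.50; limma adjusted p = 0.0232). MSX1 differed by -1.32, EMX2 by -1.15, HOXB4 by -0.88 and HOXA9 by -0.70, each without overlap and short of the threshold. GATA6, a zinc finger factor of inner organs and mesothelium, did not pass either, with 8.18, 7.11 and 7.92 against 6.07, 6.38 and 6.90 (difference 1.29; limma adjusted p = 0.0804). HOXA5 overlapped between the depots (difference 0.24; limma adjusted p = 0.635). MAB21L1, a developmental gene outside the list, was lower and dim, with a difference of -1.78 ± 0.27 (limma adjusted p = 0.0232, and 0.0746 without abdominal replicate 2).

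Immune genes contributed single calls rather than whole lists. CXCL14 was the 1 called of 26 chemokines and IL6 the 1 called of 35 interleukins, TNF family members and receptors, and the medians of these lists were 0.02 and -0.01. In complement and acute phase, C2, a protease of the classical pathway, was the 1 called of 26, with 8.17, 8.78 and 8.60 against 9.70, 9.58 and 9.27 (a 2.0-fold ratio, SE 0.19 in log2; limma adjusted p = 0.0405, and 0.124 without subcutaneous replicate 1). BOLA-DMA, which loads peptides onto class II molecules, was the 1 called of 21 interferon and antigen presentation genes (difference 0.83 ± 0.14; limma adjusted p = 0.0320, and 0.0959 without abdominal replicate 3). None of 20 macrophage markers passed, with a median of 0.03 that ran from -0.23 to 0.27 with 1 array left out. The summed intensity of these markers was 8978 on abdominal replicate 1 and 9444 on subcutaneous replicate 1. It was 15771 to 20179 on the other adipose arrays. SPP1, osteopontin, came nearest, with 10.25, 11.96 and 12.11 against 8.47, 8.83 and 10.09 (difference 2.31; limma adjusted p = 0.0652). None of 27 lymphocyte markers passed, and 19 of them had depot means under 6. IGHM, the heavy chain of immunoglobulin M, had the smallest p there (difference -1.31; limma adjusted p = 0.0889).

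Immediate-early genes, which cells switch on within minutes of a stimulus, had a median of 0.52, the highest of the 31 lists in the fit of all arrays. Without abdominal replicate 3 the pericyte list was higher, at 0.63 against 0.55, and without abdominal replicate 1 the endothelial list, at 0.54 against 0.52. Of 28 members 24 had a difference above 0, and 13 lay higher without overlap while none lay lower. That is 46.4% against 28.7% of all genes. The 1 called member was SGK1, a kinase induced by serum and glucocorticoids, with 10.75, 10.84 and 10.25 against 9.47, 9.89 and 9.39 (difference 1.03 ± 0.19; limma adjusted p = 0.0373, and 0.123 without abdominal replicate 2). The stress factor ATF3 read 9.29, 9.55 and 10.21 against 7.10, 7.83 and 8.79 (difference 1.78; limma adjusted p = 0.0764). The nuclear receptor NR4A1 differed by 1.64, FOSB by 1.12 and FOS by 0.78, and none of them passed. JUN passed only by a dimmer probe set (difference 1.41; limma adjusted p = 0.0434), beside 0.55 for its brightest. The median stayed between 0.38 and 0.64 with any 1 array left out. Subcutaneous replicate 1 read lowest of the 6 arrays for ATF3, NR4A1, FOSB and FOS. HSPB3 was the 1 called of 28 heat shock and chaperone genes, whose median was -0.01. The chaperone gene HSP90AA1 passed only by a dimmer probe set (difference 1.13; limma adjusted p = 0.0431), beside 0.17 for its brightest.

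CYP2B6, a cytochrome P450, read 8.69, 9.54 and 9.16 in abdominal fat and 11.96, 11.20 and 12.28 in subcutaneous fat (difference -2.68 ± 0.45; limma adjusted p = 0.0293, and 0.0932 without abdominal replicate 3). This is a 6.42-fold ratio between bright values, and all arrays of a depot were on the same side. CYP4B1, another cytochrome P450, read 8.22, 7.18 and 8.67 against 6.77, 4.68 and 5.00 and did not pass (difference 2.55; limma adjusted p = 0.0597). In the steroid and retinoid list 2 of 30 passed, both lower in abdominal fat, against 1.50% of all genes called. CRABP2, which carries retinoic acid to its receptor, was dim in both depots (difference -1.30 ± 0.23; limma adjusted p = 0.0354, and 0.111 without subcutaneous replicate 3). HSD11B1, which regenerates active cortisol, read 4.97, 5.22 and 5.12 against 5.81, 6.58 and 6.06 (difference -1.05 ± 0.21; limma adjusted p = 0.0498). The HSD11B1 call was lost in all 9 fits that left out an array, with adjusted p between 0.0528 and 0.153. ADH6, an alcohol dehydrogenase, was higher in abdominal fat, with a difference of 2.01 ± 0.28 (limma adjusted p = 0.0195, and 0.0741 without abdominal replicate 3). Among solute carriers 2 of 29 passed, against 1.50% of all genes. They were SLC13A4 and the zinc and manganese carrier SLC39A8. SLC39A8 read 8.82, 8.35 and 8.38 against 7.04, 7.15 and 6.99 (difference 1.46 ± 0.22; limma adjusted p = 0.0232, and 0.0709 without subcutaneous replicate 1).

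The other large calls on the subcutaneous side were of mixed function. ECM1, an extracellular matrix glycoprotein, read 8.28, 8.92 and 8.24 in abdominal fat against 10.19, 10.29 and 10.02 (difference -1.68 ± 0.31; limma adjusted p = 0.0390, and 0.130 without abdominal replicate 3). SPP2, a secreted phosphoprotein, read 6.70, 5.58 and 6.17 against 8.80, 7.89 and 8.25 (difference -2.16; limma adjusted p = 0.0141, and 0.0564 without abdominal replicate 3). ANXA8L1, an annexin, had a difference of -2.48 ± 0.49 (limma adjusted p = 0.0457) and passed in none of the 9 fits that left out an array, with adjusted p between 0.0542 and 0.136. DDIT4L, an inhibitor of mTOR signalling, differed by -1.40 (limma adjusted p = 0.0293, and 0.0910 without subcutaneous replicate 1) and the cold-inducible RNA binding protein RBM3 by -1.26 (limma adjusted p = 0.0479, and 0.152 without abdominal replicate 3). Dim genes near background completed this side. TRAM2, a translocon-associated protein of collagen synthesis, differed by -1.39 (limma adjusted p = 0.0105, and 0.0530 without abdominal replicate 3), the glutamate receptor subunit GRIA3 by -1.92 (limma adjusted p = 0.0336, and 0.108 without abdominal replicate 2) and the nicotinic receptor subunit CHRNA3 by -1.66 (limma adjusted p = 0.0336, and 0.106 without abdominal replicate 2).

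On the abdominal side the other large calls included CEACAM1, an adhesion molecule of epithelia and vessels. It read 8.23, 9.56 and 8.32 against 6.68, 7.14 and 6.64 (difference 1.88 ± 0.31; limma adjusted p = 0.0293, and 0.0922 without subcutaneous replicate 1), and its second probe set also passed, with a difference of 1.66. CDO1, cysteine dioxygenase, read 7.28, 8.43 and 8.29 against 5.78, 6.71 and 6.41 (difference 1.70 ± 0.32; limma adjusted p = 0.0410, and 0.134 without abdominal replicate 3). BTC, the epidermal growth factor relative betacellulin, was 1.85 ± 0.35 higher (limma adjusted p = 0.0430, and 0.129 without abdominal replicate 2). DZIP3, an RNA-binding ubiquitin ligase, was 1.87 ± 0.33 higher (limma adjusted p = 0.0336, and 0.0967 without abdominal replicate 2). The subcutaneous means of BTC and DZIP3 were 4.28 and 4.42, near background.

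Markers of mesothelium, skin, nerve and blood gave no call in the fit of all arrays. Of 14 mesothelial genes none passed, and the median was 0.15. UPK1B, a uroplakin of mesothelium and urothelium, read 7.90, 3.77 and 7.38 on the abdominal arrays and 2.52 to 2.86 on the subcutaneous arrays (difference 3.65; limma adjusted p = 0.0761). MSLN, mesothelin, read 6.32, 4.39 and 6.41 against 3.97 to 4.20 (difference 1.64; limma adjusted p = 0.122). Both were raised on abdominal replicates 1 and 3 and near background on abdominal replicate 2. Without abdominal replicate 2, UPK1B (limma adjusted p = 0.00035), MSLN (limma adjusted p = 0.00471) and C3 (limma adjusted p = 0.0241), a complement component listed with mesothelium, passed, and the list median was 0.35. UPK3B differed by 1.06 with overlapping depots, and the keratins KRT8, KRT18 and KRT19 by 0.17, 0.23 and 0.50. The summed intensity of the list was 5537 to 9897 in abdominal and 4477 to 6524 in subcutaneous fat. The part of mesothelium in the abdominal calls was not tested.

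Skin, nerve and blood markers did not pass either. Of 13 keratinocyte and skin genes 11 had depot means under 6, and KRT10, a keratin of the outer epidermis, had the smallest p (difference -0.79; limma adjusted p = 0.336). Of 11 nerve and Schwann cell genes STMN2, a stathmin of growing neurons, came nearest to a call, with 4.23, 4.01 and 3.76 against 5.30, 6.98 and 5.33 (difference -1.87; limma adjusted p = 0.0583). In the list of 17 erythrocyte and liver plasma protein genes it was FGG, a fibrinogen chain, with 8.61, 7.67 and 7.47 against 9.51, 9.31 and 9.06 (difference -1.38; limma adjusted p = 0.0542).

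Of the 30 genes whose difference exceeded 2 in either direction, 15 did not pass. Of these 15, 12 had no overlap between the depots, against 28.7% of all genes. All 30 were selected by the size of the difference, which itself makes overlap less likely. In several of the 15 genes that did not pass, 1 array stood apart from the others of its depot. DLK1, a preadipocyte surface protein, read 5.68 on abdominal replicate 1 and 10.55 and 11.08 on the other abdominal arrays, against 5.01 to 5.28 in subcutaneous fat (difference 3.97; limma adjusted p = 0.123). Abdominal replicate 1 was thus close to the subcutaneous level. CATHL5, an antimicrobial cathelicidin, read 11.30, 8.21 and 6.91 in subcutaneous fat against 4.72 to 5.24 in abdominal fat (difference -3.80; limma adjusted p = 0.0674). BOLA-DQB1, a polymorphic class II chain, read 4.24 on abdominal replicate 3 and 11.17 to 11.82 on the other 5 adipose arrays (limma adjusted p = 0.602). The difference of -2.24 for BOLA-DQB1 thus comes from a single array. The complement component C6 read 3.52, 4.16 and 4.18 against 5.80, 5.33 and 7.64 and did not pass (difference -2.30; limma adjusted p = 0.0583).

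**Figure D5:**
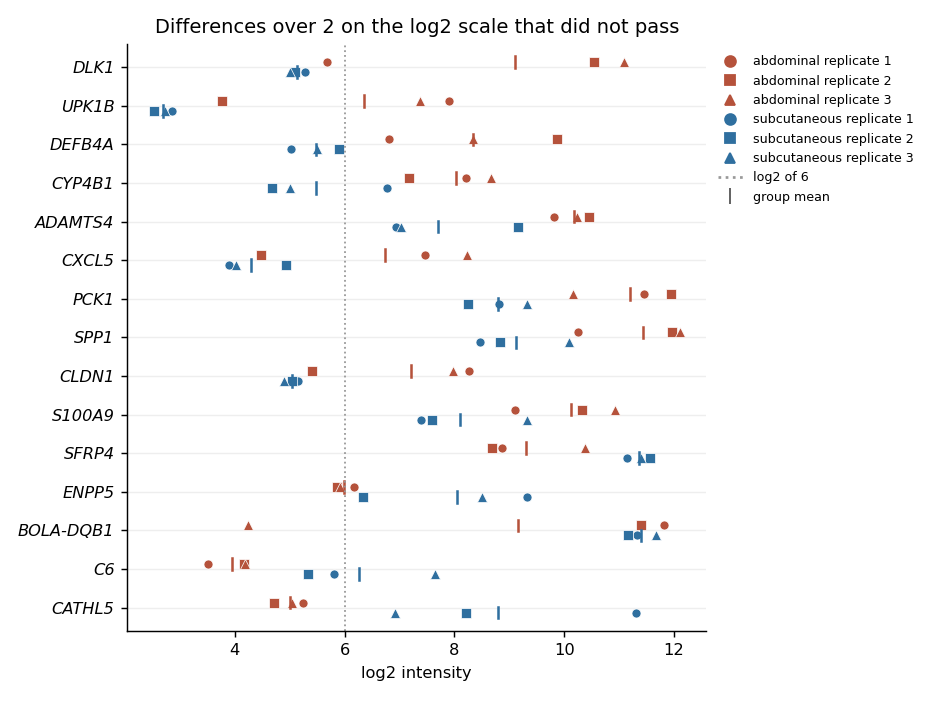
Points give the log2 intensity (x axis) of the 15 genes with a difference over 2 in size that did not pass, with abdominal arrays in red, subcutaneous arrays in blue, ticks at group means and a dotted line at 6. Single arrays stand apart for DLK1 (abdominal replicate 1 at 5.68), UPK1B (abdominal replicate 2 at 3.77) and BOLA-DQB1 (abdominal replicate 3 at 4.24).

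Genes with several probe sets gave a further look at the same RNA. Of the 137 called genes 46 had 56 other probe sets. Of these 48 differed in the same direction as the brightest and 9 passed, all 9 in the same direction. Among the 24 whose mean lay over 6, 23 had the same direction. FGF2, NNAT, CEACAM1 and ACSM2B were among the genes with a second passing probe set.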

How the data were processed

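The authors deposited linear intensity values, 1 for each probe set on each array, made with RMA per the submitters' processing notes (version and settings unknown here). The log2 of each intensity was taken, with no further scaling and no filter. The table had 24128 probe sets, and the 112 controls were left out of the tests. Names came from the platform annotation matched by gene identifier to a RefSeq gene table: 13263 probe sets by identifier and 29 by symbol, for 9155 genes. Another 86 with several symbols and 10638 with none were tested but not named. A gene was represented by its brightest probe set (mean of the 6 adipose arrays). No pair of arrays was identical.

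A model of 3 tissue means was fitted to the 9 arrays with limma 3.58.1 in R 4.3.3 (lmFit, eBayes, 6 residual degrees of freedom), two-sided, with Benjamini-Hochberg adjustment over 24016 probe sets. In 10 simulations with 200 changed probe sets of 24016, abdominal minus subcutaneous differences of 0.5, 1, 2 and 4 were called in 6.6%, 59.6%, 92.4% and 99.6%, and 5.86% of calls were false. The simulated noise was normal, independent between arrays and of the same spread on every array. Weights that limma estimated for the real arrays ran from 0.35 for muscle replicate 3 to 1.74 for abdominal replicate 1. The simulated rates may therefore not hold for these data. Control ratios used exact permutation tests, adjusted over 6 ratios (all 1.0).

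The text names the 15 largest called genes without overlap in each direction (no provisional symbols), in each of 31 lists up to 4 called members or else the member with the smallest p, and 12 fixed genes, of which WT1, TBX15 and HOXC10 had no probe set with 1 symbol. Leaving out arrays was added for the lists after seeing the data. Other genes were chosen after their values were seen. The comparison, the lists (703 of 996 genes measured) and the rules were chosen with earlier results of these data known. Python 3.11.15, pandas 2.3.3, scipy 1.17.1 and matplotlib 3.10.9 made the tables, permutation tests and figures.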

Additional observations from a re-analysis of the deposited data

How the results depend on the processing

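The number of called probe sets (314) ranged from 57 to 491 when 1 array was left out. It was 1034 with array weights, 118 with the number that opens each sample title as a replicate block, and 43 with an unmoderated linear model. The title of abdominal replicate 3 opens with a number that no other title has, so the block fit takes that array out of the comparison. The cause of these changes was not tested further. It was 36 at an adjusted p of 0.01 and 787 at 0.10. Counting genes in place of probe sets gave 159 with 1 probe set per gene and 151 with the mean of all probe sets, over 9155 genes. The number stayed within 1.5 times of 314 with the 6 adipose arrays only, either rescaling, both filters on dim probe sets, an intensity trend, robust eBayes, and without ambiguous probe sets. Title numbers 4 and 5 occur in both depots, and deviations of these pairs correlated at 0.33 and 0.362, with other pairs between -0.324 and 0.091. With only 2 shared numbers they were not taken as pairs. Of the 137 called genes 34 passed with the block, 95 with the 6 adipose arrays only, and 128 with centred arrays. Of 63 named genes, 2 changed sign in 1 setting each: LEP differed by -0.0032 without abdominal replicate 1, and UCP1 by -0.16 without abdominal replicate 2. With 1 array left out LEP ranged up to 0.58 and UCP1 up to 1.13. The 3 arrays per depot limit what can be called.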

Other observations

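The following called genes lie outside the naming rule. They were picked from the 137 after their values were seen, belong to no tested group, and are given as single genes. Higher in abdominal fat were the endothelial surface protein CD300LG by 0.91 (limma adjusted p = 0.0295), the transcription cofactor LMO2 by 0.85, KANK3 by 0.88, the junction protein F11R by 0.65, the guanosine triphosphatase RHOB by 0.84, xanthine dehydrogenase, XDH, by 1.20 and the guidance factor SLIT2 by 1.66. A dimmer F11R probe set, with means of 6.37 in abdominal and 6.33 in subcutaneous fat, differed by 0.05. Each of these calls was lost in at least 1 fit without an adipose array, and the highest adjusted p with 1 array left out lay between 0.0930 for RHOB and 0.136 for SLIT2.

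Lower in abdominal fat were the glycolytic isomerase GPI, with a difference of -0.84 (limma adjusted p = 0.0388), the pentose phosphate enzyme RPIA, at -0.91, the phosphoglycolate phosphatase PGP, at -0.70, and the phosphorylase kinase subunit PHKG2, at -0.75. The sterol hydroxylase CYP27A1 differed by -1.02, the lysosomal protease CTSD by -0.62, the prolyl hydroxylase P4HA2 of collagen synthesis by -0.82 and the serine protease PRSS23 by -1.09. With 1 array left out the limma adjusted p reached 0.126 for GPI, 0.148 for RPIA, 0.0763 for PGP, 0.0960 for PHKG2, 0.137 for CYP27A1, 0.130 for CTSD and 0.0910 for P4HA2. For PRSS23 it reached 0.0957.

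Another 36 genes passed only by a probe set dimmer than their brightest, and these 40 probe sets did not always match it. In SFXN1, a mitochondrial serine transporter, 3 passed, with differences of -1.43, -1.51 and -1.32, and the brightest differed by -1.10. In ACSL3, a long-chain acyl-CoA synthetase, 2 passed, at 1.10 and 1.09, beside 1.03 for the brightest. In EED, a Polycomb subunit, the passing probe set differed by 1.72 and the brightest by 0.12, and in the protease CTSB by 1.09 and 0.01. For 5 genes, C2CD5, DHTKD1, NOSIP, SIRPA and USP15, the brightest probe set had the opposite sign, as in NOSIP with 1.07 against -0.19 and C2CD5 with -1.34 against 0.24. Of the 314 called probe sets, 128 had no single gene symbol. The largest differences among these were -3.40 (abdominal mean 4.69, subcutaneous mean 8.09) and 2.87 (abdominal mean 10.33, subcutaneous mean 7.46).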
